A study of Mus musculus with 6 samples.

Results

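The insulin-like growth factor (IGF) genes described here are 2 growth factors (Igf1, Igf2), their 2 receptors (Igf1r, Igf2r) and 5 binding proteins (Igfbp2, Igfbp3, Igfbp4, Igfbp5, Igfbp7). They were found by symbol in a table of 15118 genes, and all 9 named genes were present and passed the filter on low values. Each library came from 1 heart of a Black-Swiss embryo at embryonic day E12.5, with 3 hearts in each genotype. The Hif1a mutant hearts (mutants 5, 8 and 10) were NKX2-5 Cre/WT; Hif1a Null/flox. The control hearts (controls 2, 5 and 9) were NKX2-5 Cre/WT; Hif1a WT/flox, so every embryo carried the Cre recombinase in one copy of Nkx2-5 and a floxed Hif1a allele. Nkx2-5 drives Cre in progenitors of the heart and in its muscle. Control cells that express Cre have a single functional Hif1a allele. Cells without Cre keep 1 functional Hif1a allele, the floxed one, in a mutant heart and 2 in a control heart. Cells without Cre are therefore not matched in Hif1a between the genotypes either. The transcription factor HIF1 owes its oxygen dependence to the product of Hif1a. The family was assembled by symbol with the RPKM differences between these mutant and control hearts already known. Its members were thus chosen in part on those differences, that of Igfbp2 among them, so its calls below are a description and not independent evidence.

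IGF1 and IGF2 are secreted peptides that drive growth through the receptor tyrosine kinase IGF1R. IGF2R, the mannose 6-phosphate receptor, takes up IGF2 and delivers it to lysosomes. The binding proteins hold IGFs outside the cell and can either limit or prolong their action. IGF2 is the main IGF of the mouse embryo, and its release from the epicardium is known to drive proliferation of the compact heart wall. Igf2, Igfbp2 and Igfbp3 have been described as hypoxia- or HIF1-responsive in other cells.

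Values are RPKM, read numbers divided by gene length and by the size of the library, which allows levels of different genes to be compared. Changes are mutant minus control on log2(RPKM + 1), a scale that compresses changes at low values, with standard errors from limma. The low values of the table imply between 101900000 reads (mutant 8) and 158800000 reads (mutant 10). The lowest member value per length, Igf1 in mutant 8, then rests on about 318 reads per kilobase. Correlations between hearts over the tested genes ranged from 0.967 to 0.994 and mutant 5 was slightly closer to the control hearts (mean 0.988) than to the other mutants (0.985). Mutant 8 and control 9 lacked chromosome Y expression and the other 4 hearts had it. Hif1a itself measured 75.7, 55.0 and 77.7 RPKM in mutants 5, 8 and 10, against 61.1, 46.4 and 46.4 RPKM in controls 2, 5 and 9, a total over exons that does not check the deletion. Heart muscle genes such as Tnnt2 (2795 RPKM in mutant and 2893 RPKM in control hearts) were abundant, as the labelled tissue requires. Nothing in the labels tells whether the embryos shared a litter, and p-values measure the spread among these 6 hearts, which may be partly technical.

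The 9 transcripts covered a wide range of levels. Igf2 was the most abundant, above 99.4% of all genes in the table by its mean over the 6 hearts. Igf2r followed, then Igfbp5, Igfbp4 and Igfbp7, and each of the first 4 lay above its next lower neighbour without overlap in the 6 hearts. Igfbp7 exceeded Igfbp2 within each of the 6 hearts, although their ranges overlapped. Igfbp2, Igfbp3 and Igf1r could not be ordered beyond their spread, since Igfbp2 exceeded Igfbp3 in 3 of the 6 hearts and Igfbp3 exceeded Igf1r in 5. Igf1 was the lowest of the 9 in mean level, near the middle of all genes (percentile 47.9).

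**Figure D1:**
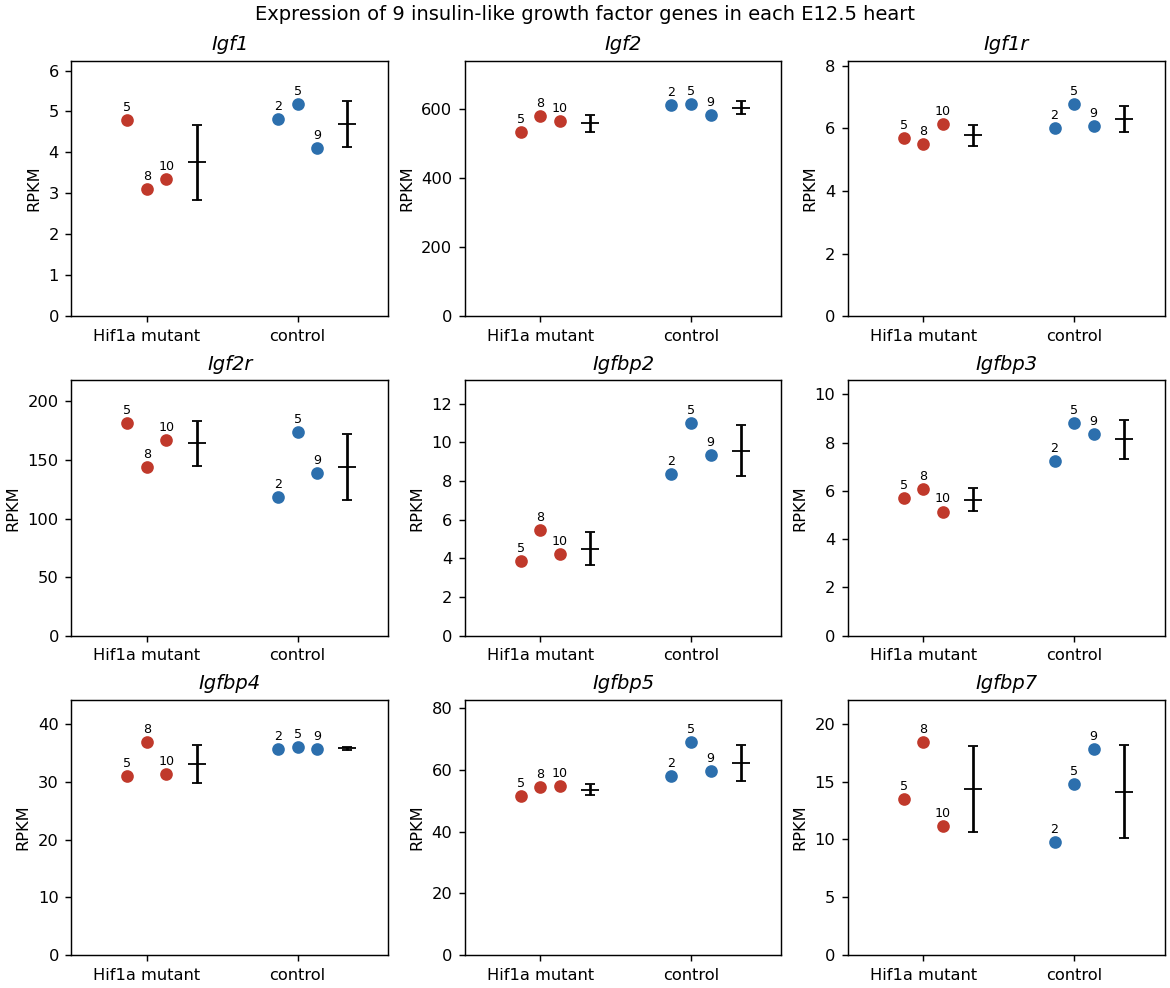
RPKM of each of the 9 genes in every heart, with Hif1a mutant hearts in red on the left and control hearts in blue on the right of each panel, numbered as in the labels, and the mean ± SD of the 3 hearts in black. Mutant values of Igfbp2 lie between 3.84 and 5.45 RPKM and control values between 8.37 and 11.0 RPKM, while those of Igfbp7 and Igf2r intermingle.

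Of the 9 genes, 7 were lower and 2 higher in the mutant hearts by their log2 change, with a median of −0.12, against a median of −0.03 and 57.4% negative changes over 13080 tested genes. Igfbp2 alone passed an adjusted p of 0.05 in limma over all tested genes, where 0.398% of genes passed as lower and 0.818% in either direction. Mutant and control values did not overlap for 4 members (Igf2, Igfbp2, Igfbp3 and Igfbp5), in each with the mutant hearts lower, a pattern seen in 9.43% of tested genes. Because this contrast was known when the family was assembled, nothing is read from these counts.

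**Figure D2:**
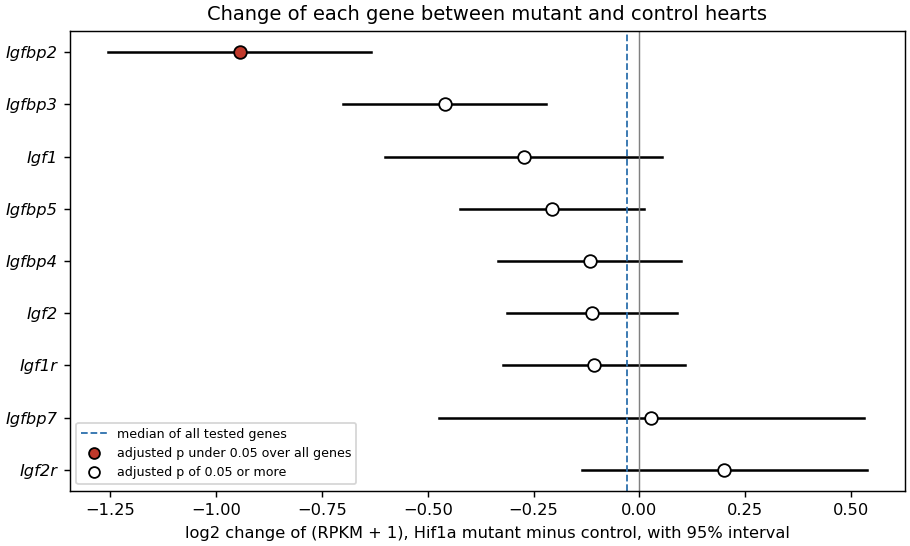
Log2 change of (RPKM + 1), Hif1a mutant minus control, for each gene (points) with its 95% interval from limma (bars), with the gene past the threshold filled red and a dashed line at the median of all tested genes. Igfbp2 stands at −0.94 and Igfbp3 at −0.46, and the intervals of the other 7 genes include 0.

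The growth factors differed far more from each other than between genotypes. Igf2 (ENSMUSG00000048583, mm10 chromosome 7, 142650766 to 142666816, minus strand) measured 531, 579 and 564 RPKM in mutants 5, 8 and 10, against 611, 614 and 582 RPKM in controls 2, 5 and 9. All mutant values lay below all control values, by a narrow margin between mutant 8 and control 9. The means were 558 ± 24.4 RPKM in mutant and 603 ± 17.8 RPKM in control hearts (SD, n = 3 each). The log2 change of −0.11 ± 0.09 SE did not pass (limma adjusted p = 0.68), and its 95% interval ran from −0.31 to 0.09. Within genotypes Igf2 was among the least variable genes, with a within-genotype SD of 0.05 on the log2 scale (percentile 4.21 of tested genes). Its value is a sum over exons of several promoters. Gene models that overlap Igf2 limit it further, since the readthrough gene Gm49394 shares 3596 exonic bases on the same strand and the antisense gene Igf2os, listed as Igf2as, shares 98 on the other. Igf2as was far lower than Igf2, at 5.28 RPKM in mutant and 5.40 RPKM in control hearts, and whether strand was used in counting is not stated.

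Igf1 (ENSMUSG00000020053, chromosome 10, 87858265 to 87937042, plus strand), the growth factor that takes over after birth, measured 4.79, 3.12 and 3.35 RPKM in mutants 5, 8 and 10. It measured 4.81, 5.19 and 4.10 RPKM in controls 2, 5 and 9. Mutants 8 and 10 lay below every control, and mutant 5 lay among the controls, so the genotypes overlapped. The log2 change was −0.27 ± 0.14 SE (limma adjusted p = 0.53). Igf2 made up between 99.1% and 99.5% of the summed RPKM of both growth factors in every heart. The ratio of Igf2 to Igf1 was 155 ± 39.2 in mutant and 129 ± 12.0 in control hearts, and mutant 5 (111) was below all controls while mutants 8 and 10 (186 and 168) were above them.

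The receptors showed no change past the threshold. Igf1r (ENSMUSG00000005533, chromosome 7, 67952827 to 68233668, plus strand), the signalling receptor, measured 5.70, 5.49 and 6.14 RPKM in mutants 5, 8 and 10, against 6.02, 6.79 and 6.09 RPKM in controls 2, 5 and 9. Mutant 10 lay above controls 2 and 9, so the genotypes overlapped, and the log2 change was −0.11 ± 0.09 SE (limma adjusted p = 0.71, 95% interval −0.32 to 0.11). Igf2r (ENSMUSG00000023830, chromosome 17, 12682406 to 12769664, minus strand), the clearance receptor, measured 182, 144 and 167 RPKM in mutants 5, 8 and 10, against 119, 174 and 139 RPKM in controls 2, 5 and 9. Control 5 exceeded mutants 8 and 10, and the log2 change of 0.20 ± 0.15 SE, the highest of the 9, did not pass (limma adjusted p = 0.65). Igf2r also varied more within genotypes than 86.0% of tested genes. The ratio of Igf2r to Igf1r was 31.9, 26.2 and 27.2 in mutants 5, 8 and 10, against 19.7, 25.6 and 22.8 in controls 2, 5 and 9. These ratios did not overlap between genotypes, with mutant 8 just above control 5. Of single tested genes 17.0% did not overlap in either direction, and the share among ratios of 2 genes was not worked out. Airn, the antisense RNA that silences the paternal Igf2r allele, overlaps Igf2r on the opposite strand without shared exonic bases, and measured 6.90 RPKM in mutant and 7.73 RPKM in control hearts.

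Igfbp2, a binding protein with a preference for IGF2, had the largest difference of the 9. Igfbp2 (ENSMUSG00000039323, chromosome 1, 72824503 to 72852474, plus strand) measured 3.84, 5.45 and 4.22 RPKM in mutants 5, 8 and 10, against 8.37, 11.0 and 9.34 RPKM in controls 2, 5 and 9. Every mutant heart lay below every control heart, and control 5 was the highest of all. Igfbp2 fell to 4.51 ± 0.842 RPKM in mutant hearts, against 9.57 ± 1.33 RPKM in control hearts (SD, n = 3 each), a mutant mean 52.9% below the control mean. The log2 change was −0.94 ± 0.14 SE (limma adjusted p = 0.017, 95% interval −1.26 to −0.63), and by its p Igfbp2 ranked 58th of 13080 tested genes. It was not past the threshold without mutant 10 (log2 change −0.91, limma adjusted p = 0.11) or without control 5 (−0.85, limma adjusted p = 0.098).

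Igfbp3, the main IGF carrier of adult blood, showed a smaller difference in the same direction. Igfbp3 (ENSMUSG00000020427, chromosome 11, 7206086 to 7213923, minus strand) measured 5.70, 6.07 and 5.14 RPKM in mutants 5, 8 and 10, against 7.25, 8.81 and 8.36 RPKM in controls 2, 5 and 9. The genotypes did not overlap, and control 2 was the control nearest to the mutants, as it was for Igfbp2. The means were 5.64 ± 0.465 RPKM in mutant and 8.14 ± 0.803 RPKM in control hearts (SD, n = 3 each), and the log2 change of −0.46 ± 0.11 SE did not pass over all genes (limma adjusted p = 0.12). Its convergent neighbour Igfbp1, 3539 bases away, was not analysed here.

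Igfbp5, which binds extracellular matrix as well as IGFs, was the most abundant binding protein transcript. Igfbp5 (ENSMUSG00000026185, chromosome 1, 72857932 to 72874884, minus strand) measured 51.6, 54.6 and 54.8 RPKM in mutants 5, 8 and 10, against 58.2, 69.0 and 59.6 RPKM in controls 2, 5 and 9. The genotypes did not overlap, and the 3 mutant values lay close together while control 5 stood above the other controls. The log2 change was −0.21 ± 0.10 SE (limma adjusted p = 0.47). Igfbp5 lies tail to tail with Igfbp2, with 5457 bases between the genes and no shared exon. The ratio of Igfbp5 to Igfbp2 was 12.1 ± 1.86 in mutant and 6.54 ± 0.369 in control hearts, and its lowest mutant value (10.0 in mutant 8) lay above its highest control value (6.96 in control 2). A ratio within a heart does not depend on the scaling of its library. Because it contains Igfbp2, this ratio largely restates the difference of Igfbp2 and is not separate evidence.

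Igfbp4, an inhibitor of IGF action that the protease PAPP-A cleaves, measured 30.9, 36.8 and 31.3 RPKM in mutants 5, 8 and 10, against 35.7, 36.1 and 35.6 RPKM in controls 2, 5 and 9 (ENSMUSG00000017493, chromosome 11, 99041244 to 99054392, plus strand). Mutants 5 and 10 were below the controls and mutant 8 above them, and the log2 change was −0.12 ± 0.10 SE (limma adjusted p = 0.68). Igfbp7, a related protein with low affinity for IGFs that is known from vessel walls, measured 13.5, 18.4 and 11.1 RPKM in mutants 5, 8 and 10, against 9.81, 14.8 and 17.8 RPKM in controls 2, 5 and 9 (ENSMUSG00000036256, chromosome 5, 77349240 to 77408041, minus strand). Its log2 change was 0.03 ± 0.22 SE (limma adjusted p = 0.97, 95% interval −0.47 to 0.53), with negative values without mutant 8 (−0.16), without control 2 (−0.20) and after rescaling without haemoglobin genes (−0.01). Igfbp7 was more variable within genotypes than 96.8% of tested genes, so changes of the size of that of Igfbp3 lie inside its interval. It shares 85 exonic bases with Polr2b on the opposite strand.

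Summed over the 5 binding proteins, transcripts reached 106, 121 and 107 RPKM in mutants 5, 8 and 10, against 119, 140 and 131 RPKM in controls 2, 5 and 9. Mutant 8 lay just above control 2, so the sums overlapped. Within that sum Igfbp2 held 4.03% ± 0.430 in mutant and 7.34% ± 0.467 in control hearts, and Igfbp3 held 5.07% ± 0.298 in mutant and 6.26% ± 0.165 in control hearts (SD, n = 3 each). Neither share overlapped between genotypes. Igfbp5 remained the largest component, with 48.4% in mutant and 47.9% in control hearts, followed by Igfbp4 with 29.7% and 27.7%. Igfbp2 was below Igfbp3 in the 3 mutant hearts and above it in the 3 control hearts, with ratios of Igfbp3 to Igfbp2 of 1.48, 1.11 and 1.22 in mutants 5, 8 and 10, against 0.866, 0.801 and 0.895 in controls 2, 5 and 9. Igf2 transcripts were 5.03 ± 0.262 times the summed binding proteins in mutant and 4.66 ± 0.403 times in control hearts, values that overlapped.

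**Figure D3:**
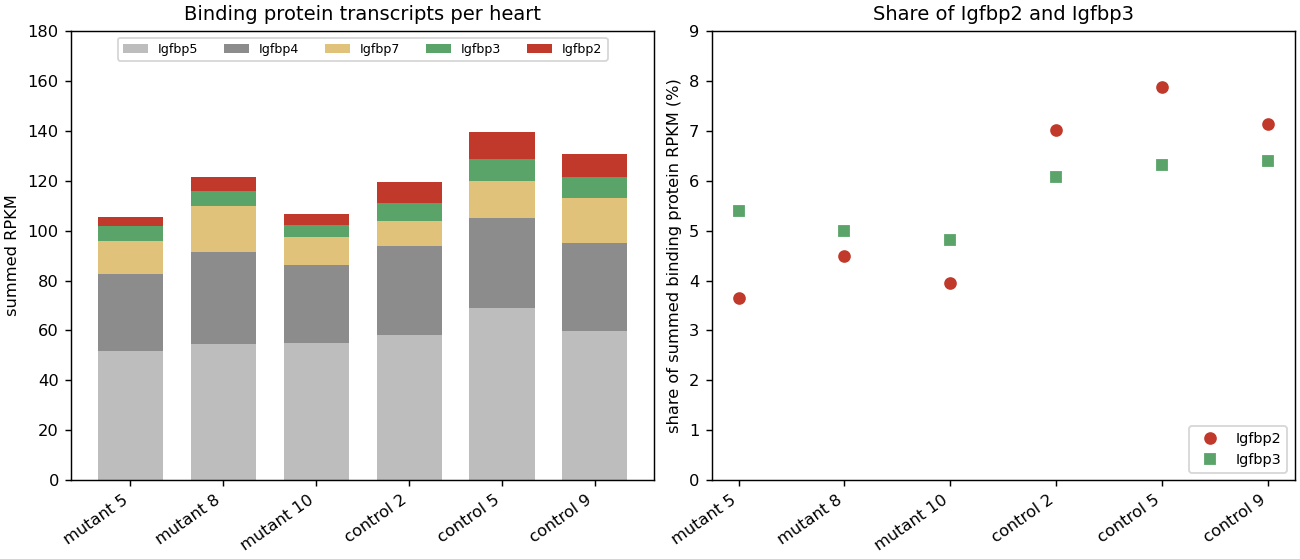
Left, summed RPKM of the 5 binding proteins in each heart, stacked by gene, with mutant hearts left of control hearts. Right, the share of that sum (percent) held by Igfbp2 (circles) and Igfbp3 (squares), with Igfbp2 below Igfbp3 in the 3 mutant hearts and above it in the 3 control hearts.

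The sequence before the start of Igfbp2, Igfbp3 and Igfbp5 is shown because HIF1 binds the letters ACGTG or GCGTG, and because the first 2 genes had the largest differences and Igfbp5 is the chromosomal neighbour of Igfbp2. Each is the 250 bases before the first RefSeq start (GRCm38.p6), 5′ to 3′ on the strand of the gene, with ACGTG or GCGTG on either strand in capitals and overlapping matches joined. The windows are chr1:72824230-72824479 (plus strand) for Igfbp2, chr11:7213924-7214173 (minus strand) for Igfbp3 and chr1:72874866-72875115 (minus strand) for Igfbp5.
Igfbp2: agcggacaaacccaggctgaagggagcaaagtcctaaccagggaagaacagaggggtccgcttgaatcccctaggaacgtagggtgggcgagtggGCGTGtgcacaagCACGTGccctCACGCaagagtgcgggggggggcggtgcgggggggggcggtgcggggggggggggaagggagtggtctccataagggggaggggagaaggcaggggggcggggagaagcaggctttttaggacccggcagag
Igfbp3: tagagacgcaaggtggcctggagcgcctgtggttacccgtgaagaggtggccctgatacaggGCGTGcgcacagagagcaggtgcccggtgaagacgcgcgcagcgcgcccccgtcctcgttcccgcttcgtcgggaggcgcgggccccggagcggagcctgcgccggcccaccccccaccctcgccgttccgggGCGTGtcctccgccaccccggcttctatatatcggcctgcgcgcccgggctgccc
Igfbp5: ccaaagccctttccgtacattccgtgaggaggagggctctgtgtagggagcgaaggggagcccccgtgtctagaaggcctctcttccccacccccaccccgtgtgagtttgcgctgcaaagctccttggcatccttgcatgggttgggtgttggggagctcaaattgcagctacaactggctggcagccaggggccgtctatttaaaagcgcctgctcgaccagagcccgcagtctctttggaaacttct
The Igfbp2 window held 3 sites, with first bases 155, 142 and 132 bases before the start. The middle site reads CACGTG, which is the same on both strands and is also an E-box. It occurred in 6.02% of 32851 windows of this length in the same RefSeq table. The Igfbp3 window held GCGTG at 188 and 55 bases before the start, and that of Igfbp5 held none. Among all those windows 38.6% held at least 1 site, 13.5% at least 2, 4.65% at least 3 and 1.49% at least 4. All 9 genes matched, with 13 windows in all, 7 of which held a site. Igf2r, whose log2 change was positive, held 4 sites, with CACGTG at 48 and at 7 bases before the start, and Igf1r held 3. Igfbp7 held 2, Igf1 1 and Igf2 1 in 1 of its 4 windows, while Igfbp4 and the second window of Igfbp2 held none. Letters in a window are not a binding site, and the windows of Igfbp2 and Igfbp3 are rich in G and C (67.2% and 73.2%, against a median of 52.4% over all windows).

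Other genes of the pathway are given from lists that were chosen with earlier results of these data known. Of 84 genes in 7 lists 71 were in the table and 65 tested. One was lower (Map2k1) and 1 higher (Gadd45a) past the threshold, beside the 0.398% lower and 0.420% higher of all tested genes, and the median log2 change was −0.06. Among genes of IGF receptor signalling 31 were tested, with 22 negative changes and a median of −0.05. Map2k1, the kinase MEK1 of the ERK cascade, measured 16.7, 15.7 and 17.9 RPKM in mutants 5, 8 and 10, against 23.7, 24.7 and 27.4 RPKM in controls 2, 5 and 9. It fell by 0.56 ± 0.10 SE on the log2 scale (limma adjusted p = 0.037), a call that was lost on leaving out any heart (limma adjusted p between 0.056 and 0.19), after median centring (0.054) and in the 4 Y-expressing hearts (0.30). The next 2 by p were Pik3r1, a regulatory subunit of phosphoinositide 3-kinase, at 2.25 RPKM in mutant and 2.96 RPKM in control hearts (limma adjusted p = 0.33), and the adaptor Grb10, an inhibitor of IGF1R signalling, at 136 and 160 RPKM (limma adjusted p = 0.51). The adaptors Irs1 (4.31 RPKM in mutant and 5.07 RPKM in control hearts) and Irs2 (1.58 and 1.38 RPKM), and the kinase Akt1 (84.0 and 82.8 RPKM), did not pass and were named after their values were seen.

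The remaining lists held few calls. Of the family outside the 9, only the insulin receptor Insr (5.49 RPKM in mutant and 5.50 RPKM in control hearts) and Igfbpl1 (2.29 and 2.48 RPKM) were tested. The proteases that cut binding proteins, and their inhibitors, had 5 tested genes and no call. Among them Stc2, a PAPP-A inhibitor, measured 1.48 RPKM in mutant and 0.809 RPKM in control hearts (limma adjusted p = 0.12), the related Stc1 0.904 and 1.19 RPKM (0.52), and the protease Adam12 1.25 and 1.70 RPKM (0.34). Of 4 tested proteins with an IGFBP domain none passed, with Ctgf at 16.3 RPKM in mutant and 12.0 RPKM in control hearts, Wisp1 at 4.48 and 5.41 RPKM and Cyr61 at 10.8 and 10.1 RPKM. The RNA-binding proteins of Igf2 transcripts, Igf2bp1 (5.82 RPKM in mutant and 5.83 RPKM in control hearts) and Igf2bp2 (14.9 and 13.1 RPKM), did not pass.

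Igf2 belongs to a set of imprinted growth genes, of which 12 were tested and none passed. H19, the maternally expressed RNA that shares enhancers with Igf2 and lies 72622 bases from it, measured 2792 ± 34.3 RPKM in mutant and 2920 ± 120 RPKM in control hearts (SD, n = 3 each). The ratio of H19 to Igf2 was 5.01 ± 0.256 in mutant and 4.84 ± 0.0970 in control hearts, and these overlapped. The smallest p of the list belonged to the growth inhibitor Cdkn1c (323 RPKM in mutant and 210.4 RPKM in control hearts, limma adjusted p = 0.12), Zim1 (7.43 and 10.5 RPKM, 0.13) and Mest (746 and 561 RPKM, 0.33). The genotypes did not overlap in 4 of the 12 (Cdkn1c and Mest higher, Zim1 and Grb10 lower in mutant hearts), beside 17.0% of all tested genes in either direction. Cdkn1c was past the threshold without mutant 5 (log2 change 0.75, limma adjusted p = 0.027). Of 12 tested FoxO targets, genes that FoxO factors induce when IGF signalling is low, the growth arrest gene Gadd45a rose to 4.24 ± 0.450 RPKM in mutant hearts, against 1.74 ± 0.280 RPKM in control hearts (SD, n = 3 each, limma adjusted p = 0.0070). In the 4 Y-expressing hearts Gadd45a was not past the threshold (limma adjusted p = 0.079), and it is also a known target of p53. Klf15 measured 1.91 RPKM in mutant and 1.25 RPKM in control hearts (limma adjusted p = 0.17) and Pdk4 4.67 and 5.94 RPKM (0.29), and the list had 6 negative and 6 positive changes.

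**Figure D4:**
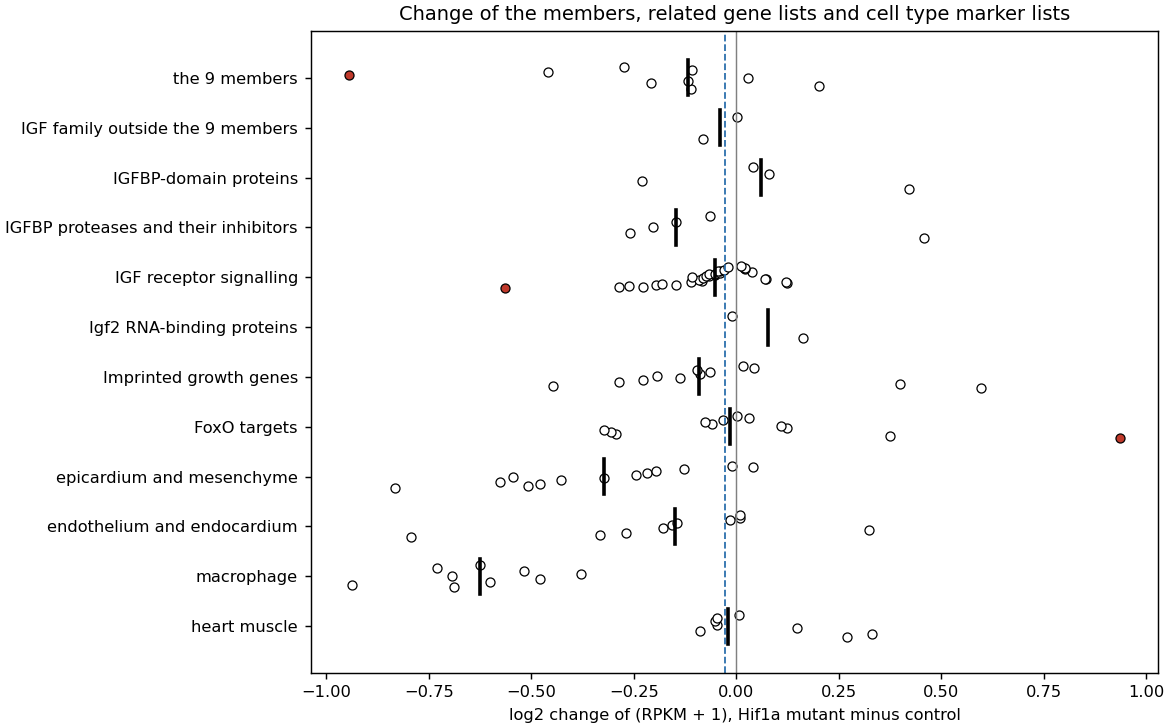
Log2 change of (RPKM + 1), Hif1a mutant minus control, of every tested gene (points) in the family, in 7 pathway lists and in 4 marker lists, with black bars at list medians, red points past an adjusted p of 0.05 over all genes and a dashed line at the median of all tested genes. Igfbp2, Map2k1 and Gadd45a are the red points. The macrophage points all lie left of 0, and the epicardial and mesenchymal points mostly do.

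Summed markers of some other cell types were lower in the same hearts. The 13 epicardial and mesenchymal markers summed to 408, 435 and 316 RPKM in mutants 5, 8 and 10, against 498, 542 and 540 RPKM in controls 2, 5 and 9. Of their changes 12 of 13 were negative, beside 57.4% of all tested genes, with a median of −0.32 and none past the threshold. Collagen genes hold much of this sum, with Col1a1 at 84.4 RPKM in mutant and 118 RPKM in control hearts, Col3a1 at 93.7 and 126 RPKM and Col1a2 at 46.6 and 81.8 RPKM. Col1a1 and Col1a2 were the only markers of the 13 whose genotypes did not overlap. In both the mutant hearts were lower, as in 9.43% of all tested genes. The other mesenchymal genes had log2 changes of −0.58 for Postn, −0.55 for Lum, −0.48 for Dcn, −0.32 for Pdgfra and −0.19 for Pdgfrb. The epicardial markers of the list differed less than the collagen genes, with log2 changes of 0.04 for Upk3b, −0.01 for Aldh1a2, −0.13 for Wt1, −0.22 for Tcf21 and −0.25 for Tbx18. The 9 macrophage markers in the table summed to 28.5, 24.5 and 12.6 RPKM in mutants 5, 8 and 10, against 34.5, 39.2 and 40.1 RPKM in controls 2, 5 and 9. All 9 changes were negative, with a median of −0.62 and none past the threshold. Fcer1g, Mrc1, Cx3cr1, Lyz2, Csf1r, Cd68 and Emr1 were lower without overlap, beside 9.43% of all tested genes, while C1qa and C1qb overlapped. Neither the mesenchymal nor the macrophage sum overlapped between genotypes, and mutant 10 was lowest in both. Igf1 is known from macrophages, and Igf2 and several binding proteins from epicardium and mesenchyme. The part of these cells in the differences of Igfbp2, Igfbp3, Igfbp5, Igf1 and Igf2 was not tested, and in whole hearts fewer cells of a type and less RNA per cell cannot be told apart. The heart that was lowest in Igfbp2 was mutant 5, and mutant 10 was the lowest in Igfbp3. The rank of a single heart decides nothing about the part of these cells. Endothelial and endocardial markers (10 tested, median −0.15, sums of 129 to 149 RPKM in mutant and 136 to 156 RPKM in control hearts) and heart muscle markers (8 tested, median −0.02) had no call. Smooth muscle markers (4 tested, median 0.06, 348 to 471 RPKM in mutant and 344 to 370 RPKM in control hearts) and erythroid genes (6 tested, median −0.04, 8072 to 13438 RPKM in mutant and 9460 to 11503 RPKM in control hearts) had none either. The smooth muscle marker Itga8 (log2 change −0.52) was lower without overlap, beside 9.43% of all tested genes. Tagln (0.24), Acta2 (0.16) and Cnn1 (−0.04) overlapped. Among the endothelial and endocardial markers 7 changes were negative and 3 positive. Of these markers Cldn5 (log2 change −0.79, limma adjusted p = 0.064), Kdr (−0.33) and Cdh5 (−0.27) were lower in every mutant heart than in every control heart. That pattern was seen in 9.43% of all tested genes. The genotypes overlapped in the rest, with positive changes of Plvap (0.32), Tie1 (0.01) and Npr3 (0.01). Negative changes with overlap were those of Tek (−0.18), Pecam1 (−0.16), Emcn (−0.14) and Nfatc1 (−0.02). Liver, a rich source of Igf2 and Igfbp2 in the embryo, was represented by Apoa2, Ttr and Afp alone, which summed to 2.48 to 4.24 RPKM in mutant and 2.08 to 5.69 RPKM in control hearts, and Alb was not among the genes analysed here.

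The genes whose profile over the 6 hearts was nearest to that of Igfbp2, by the root mean square difference of log2(RPKM + 1) after subtracting the mean of each gene, were Pygl (0.14), Mif (0.14), Loxl2 (0.15) and Eno1 (0.17), against a root mean square of 0.50 for the profile of Igfbp2 itself. All 4 passed as lower in the mutant hearts, and because Igfbp2 separates the genotypes its neighbours in this measure do so too. Pygl, glycogen phosphorylase, measured 6.00 RPKM in mutant and 12.8 RPKM in control hearts, and the matrix enzyme Loxl2 23.0 and 42.1 RPKM. The cytokine Mif measured 326 RPKM in mutant and 567 RPKM in control hearts and the glycolytic enzyme Eno1 161 and 267 RPKM. Mif, Loxl2 and Eno1 were not past the threshold without mutant 10 (limma adjusted p = 0.19, 0.071 and 0.073), without control 5 (0.22, 0.080 and 0.092) or in the 4 Y-expressing hearts (0.081, 0.082 and 0.096). Eno1 also lost its call without control 9 (0.058), and Mif without control 9 (0.14), without mutant 5 (0.066) and after median centring (0.10). Pygl passed in every setting in which it was tested. Nearest to Igf2 were Rell1, Hnrnpul2, Mcm3 and Setd1b, at root mean square differences of 0.02 each against 0.07 for Igf2 itself, and none of them passed.

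**Figure D5:**
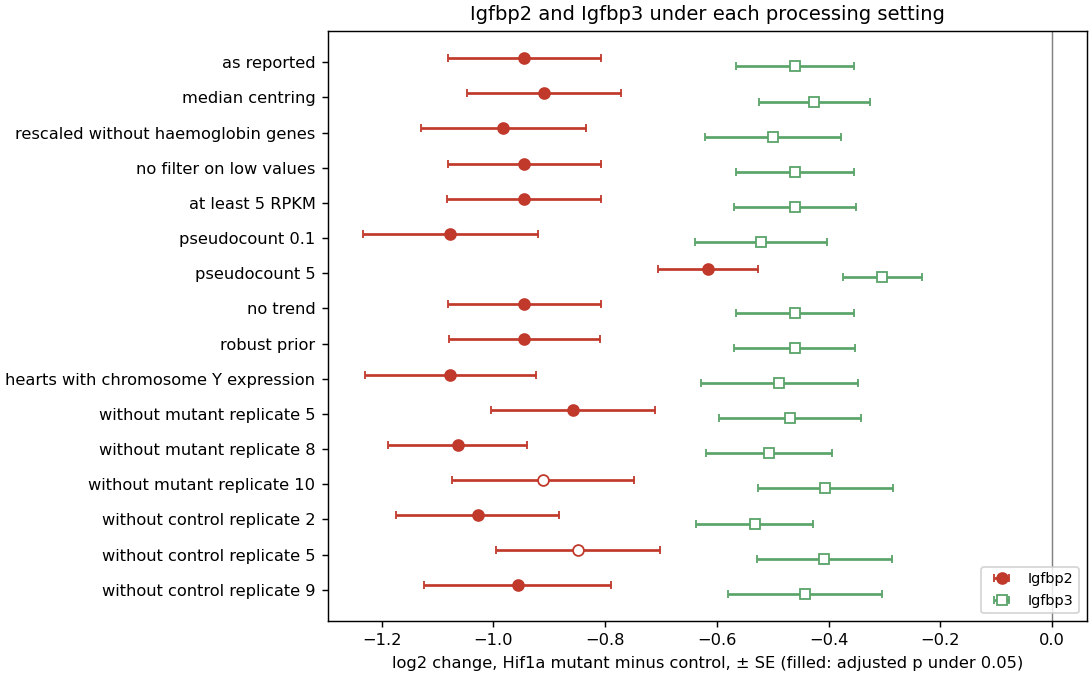
Log2 change ± SE of Igfbp2 (circles) and Igfbp3 (squares), Hif1a mutant minus control, as reported and under each of 15 other processing settings, filled where the adjusted p over all genes was under 0.05. Igfbp2 ranges from −1.08 to −0.62 and is open without mutant replicate 10 and without control replicate 5, and Igfbp3 ranges from −0.53 to −0.30 and is open throughout.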

How the data were processed

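TRIzol RNA of 6 hearts was sequenced on Illumina libraries, per the labels' protocols. The submitters' processing notes name Trim Galore, TopHat2 and mm10. The counting tool, its annotation and its use of strand are not given. The authors deposited linear RPKM, 1 column a heart, a unit inferred from the values. Depth was estimated from single-exon genes, in which 93.5% to 98.2% of low values multiplied by length came within 0.1 of a whole number of reads (18.9% to 20.3% with other step sizes). Every listed gene had a geometric mean of 0.5 RPKM or more in 1 genotype or both.

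limma 3.58.1 in R 4.3.3 was fitted with a mean-variance trend to log2(RPKM + 1) of all 6 hearts, without covariates, for the 13080 genes that reached 1 RPKM in 3 or more libraries, with Benjamini-Hochberg adjustment over all of them, a threshold of 0.05 and two-sided p-values. Data were simulated for this comparison (13017 to 13051 genes a run, 5 runs, 200 changed genes). The share recovered was 52.8% for a log2 change of 0.6 and 85.4% for 1, with 4.89% false calls. Noise was drawn from a normal distribution, independently for each gene. Differences shared by many genes of a heart were not simulated, so these shares do not measure errors from them. Changes were planted only in genes above a minimum mean level, so recovery near 1 RPKM was not measured. Positions are from GENCODE M21 (mm10), which held 14877 of 15118 gene identifiers, and promoters from RefSeq (GRCm38.p6). Python 3.11.15 and matplotlib 3.10.9 were used.

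The members and lists were chosen with earlier results of these data known. Named genes are the 9 members, Hif1a, in each pathway list the called genes and the 3 of smallest p, and the 4 nearest profiles to Igfbp2 and Igf2, leaving out predicted or non-coding symbols, and markers as part of their lists (Tnnt2, the liver genes). H19, Airn, Igf2as, Polr2b, Irs1, Irs2 and Akt1 lie outside this rule and were named after their values were seen. The same holds for the single epicardial, mesenchymal, collagen, macrophage, endothelial and smooth muscle genes. Alternatives were median centring, rescaling without haemoglobin genes, no filter, a minimum of 5 RPKM, pseudocounts of 0.1 and 5, no trend, a robust prior, the hearts with chromosome Y expression, and each heart left out.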

Additional observations from a re-analysis of the deposited data

How the results depend on the processing

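Each member kept its direction under up to 15 other settings except Igfbp7, whose log2 change was −0.01345 after rescaling without haemoglobin genes and −0.20 to 0.20 with a heart left out (negative without mutant 8 or control 2). Of 134 values for members 129 kept direction and side of the threshold, and 2, both of Igfbp2, lost the call (limma adjusted p = 0.11 without mutant 10 and 0.098 without control 5). The members past the threshold numbered 0 to 1 with a heart left out. Over all genes 107 passed, 54 in the 4 Y-expressing hearts, and 45 to 198 with a heart left out. Omitting mutant 5, 8 or 10 gave 198, 90 or 46, and omitting control 2, 5 or 9 gave 62, 45 or 68. Higher genes were 55 of the 107, 57 of 91 after median centring and 54 of 133 after rescaling without haemoglobin genes. In the pathway lists 2 passed, 1 after median centring (Map2k1 lost), 1 with a minimum of 5 RPKM (Gadd45a untested), 0 in the 4 Y-expressing hearts, and 1 to 2 with a heart left out. Some genes near 0 changed sign. The log2 change of Igf2bp1 was 0.02358 after median centring, 0.03648 in the 4 Y-expressing hearts and −0.1371 to 0.06314 with a heart left out. That of Insr was −0.03589 after rescaling without haemoglobin genes and −0.06175 to 0.06637 with a heart left out, and that of Cyr61 −0.003623 to 0.1459 with a heart left out. Where a call was lost among the same genes and hearts, the cause was not tested. Per gene, reads depend on the exon length counted. The deposited data list the exons used for each gene (14 identifiers for Igfbp2), but the length they cover was not worked out here. Over all annotated exons the fewest would be about 1016, for Igfbp2 in its lowest heart, with a counting error of 3.14% that covers counting only. No paired analysis was possible because the genotypes share 1 sample number.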
